A study of Mus musculus with 18 samples.

Results

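The transcription factors that hold liver cells to their identity, and the receptors through which the liver senses foreign compounds, were examined on mRNA arrays. The group held 9 genes, Hnf4a, Cebpa, Cebpb, Foxa1, Foxa2, Foxa3, Onecut1, Nr1i2 and Nr1i3, taken by gene symbol. They are 9 of the 16543 genes named on the array. All 9 had probes, 13 of 41174 in all, and all 13 were among the 32057 probes that stood above background and were tested. Each liver RNA was hybridised beside a common reference, universal mouse reference RNA, which is a commercial pool of RNA from mouse cell lines. A value here is the log2 ratio of liver to reference unless stated otherwise.

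Livers came from male C57BL/6 pups at PND (post natal day) 15, 5 control and 5 hypothyroid, with 1 pup from each litter. Dams of the hypothyroid group were given MMI (0.05%) and perchlorate (1%) with their sugar water (1%) from PND 12, so the drugs reached the pups through the dam and the drinking water. MMI blocks the synthesis of thyroid hormone and perchlorate blocks the uptake of iodide by the thyroid. The control dams had the sugar water alone. Pups of both groups received an injection of PBS before they were killed. The comparison asks whether a short loss of thyroid hormone alters the mRNA of these regulators.

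These factors form a network. HNF4A is a nuclear receptor bound to the promoters of many hepatocyte genes, FOXA proteins open chromatin for other factors, ONECUT1 (also called HNF6) acts in liver and bile duct development, and the C/EBP proteins drive genes of metabolism and of the acute phase response. Nr1i2 encodes PXR and Nr1i3 encodes CAR, which bind DNA with RXR and switch on the enzymes and transporters that clear drugs, bile acids and steroids. CAR target enzymes also take part in the clearance of thyroid hormone.

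The arrays did not all behave alike. As labelled, the ratios of slide 141, which held control 832 and hypothyroid 576, correlated at -0.974 and -0.978 with those of the other slides, so the direction of this slide was not settled by the labels. The channels of that slide were exchanged here. If slide 141 were the slide labelled as it was run, the sign of every log2 ratio and difference in this text would turn. In the direction used here the 8 hepatocyte markers tested had control means above 0, with Alb at 2.76 and Ttr at 4.64. After the exchange 9 arrays correlated with the others at 0.976 to 0.988, and control 616 at 0.882 with a slope of 0.608, so its ratios were compressed toward 0. The mean ratio of 13 pancreatic acinar markers was 4.08, 4.10 and 2.54 in controls 832, 522 and 616, but 0.50 and 0.46 in controls 881 and 391 and 0.41 to 0.53 in the hypothyroid livers. In these whole liver samples, fewer cells of a type and less RNA per cell cannot be told apart.

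Promoter sequences were read from RefSeq (GRCm38.p6), where all 9 genes had at least 1 window and 12 windows were held in all. The 250 bases before each start were searched on both strands for 4 motifs. The nuclear receptor half-site AGGTCA and the C/EBP site TTGCNNAA were found in 0 of the 12 windows, against 14% and 9.56% of all 32851 windows. The Onecut site ATCGAT was also found in 0, against 0.728% of all. The forkhead site TGTTTAC was found in 1 window, that of Foxa1, against 3.17% of all. A missing match says only that these letters are not in the window. The first 2 sequences are of the 2 members at an unadjusted p below 0.05 between the groups, shown for that reason, and the third is the short stretch around the Foxa1 match, with the match in capitals. Cebpb lies on the plus strand at chr2:167688915-167690432 and its window is chr2:167688665-167688914. Onecut1 lies on the plus strand at chr9:74861921-74889648 and its window is chr9:74861671-74861920. The Foxa1 stretch is chr12:57546238-57546260 on the minus strand, inside the annotated span of the gene at chr12:57540628-57548029.
Cebpb: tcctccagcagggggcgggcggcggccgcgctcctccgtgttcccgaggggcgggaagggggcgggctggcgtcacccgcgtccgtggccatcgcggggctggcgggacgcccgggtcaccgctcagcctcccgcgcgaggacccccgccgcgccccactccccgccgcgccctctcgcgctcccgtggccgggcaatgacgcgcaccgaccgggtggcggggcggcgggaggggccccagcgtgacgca
Onecut1: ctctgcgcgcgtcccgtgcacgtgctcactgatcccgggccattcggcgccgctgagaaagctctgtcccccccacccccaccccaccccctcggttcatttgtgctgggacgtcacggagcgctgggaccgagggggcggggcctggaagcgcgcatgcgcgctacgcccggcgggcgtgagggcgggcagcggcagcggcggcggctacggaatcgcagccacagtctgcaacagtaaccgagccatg
Foxa1: actgctttGTAAACAaagtgagg
The Cebpb window is 81.6% G or C and that of Onecut1 71.6%, beside a median of 52.4% over all windows.

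The first comparison asked how far each regulator stood above the reference in control liver. Of the 9 genes, 8 were called higher in control liver than in the reference (limma, adjusted p below 0.05), beside 36.3% of all probes tested, and 0 were called lower, beside 33.3% of all probes. With the dyes of slide 141 taken as labelled, 0 of 9 were called, and with the sign of every array turned the 8 would be lower. The 8 hepatocyte markers tested also had control means above 0.

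Foxa2, a pioneer factor, had the widest ratio, 5.29 ± 0.32 (SD, n = 5) in control liver, which is 39.2-fold. Hnf4a was at 4.02 ± 0.91 and 16.2-fold, Nr1i2 at 3.70 ± 0.76 and 12.96-fold, and Cebpa at 3.60 ± 0.71 and 12.1-fold. Foxa3 was at 3.18 ± 0.57, Nr1i3 at 2.87 ± 0.40 and Onecut1 at 2.78 ± 0.43, between 6.88-fold and 9.09-fold. Foxa1, which has broad roles in other epithelia, stood 1.38-fold above the reference at 0.47 ± 0.24, with an adjusted p of 0.000627. Its probe was the dimmest of the 13, with a mean log2 signal of 6.69. The offset of the background correction draws the ratios of dim probes toward 0. Cebpb, an inducible factor that many cell types make, was at 0.12 ± 0.74 and was the member not called (adjusted p = 0.630). These ratios depend on what the reference cells express and do not rank the genes by mRNA level.

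The second comparison set hypothyroid against control liver. Of the 9 genes, 0 were called at an adjusted p below 0.05, beside 2 of 32057 probes, 0.00624% of all. An Fs test, the kind of shrunken-variance test the study used, was rebuilt here on these ratios. It also called 0 of the 9, and 2 of 32057 probes. The study's own fit was not repeated. At an unadjusted p below 0.05 there were 2 members, beside 7.42% of all probes. With each array left out this count was 1 to 3, beside 5.3% to 9.48% of all probes. It was 1 without control 616, 391 or 881, without hypothyroid 576 or 891, without slide 141 or with slide as a fixed block. In these settings 5.98% to 7.53% of all probes passed. In each of them Onecut1 dropped out. With slide as a random block the count was 3 (9.86% of all probes), where Onecut1 stayed and Nr1i3 was added. It was 0 with the dyes as labelled (0.338% of all probes) or with median centring (0.989%). It was 4 without controls 832, 522 and 616 (7.37%), a set chosen after the values were seen. Cebpb was the member with the lower mean in hypothyroid liver (4.08% of all probes were lower at that threshold) and Onecut1 the one with the higher mean (3.34% of all probes were higher). By the sign of the mean difference 6 members were higher and 3 lower, and the median over the 9 was 0.30, beside -0.011 over all probes. Without control 616 the count was 4 higher and 5 lower and the median was -0.072. Without controls 522 and 616 it was 5 higher and 4 lower with a median of 0.049, and without controls 832, 522 and 616 it was 6 higher and 3 lower with a median of 0.23, so the size and sign of the median depended on which controls were kept. Of the 9 lead probes (for each gene the probe with the brightest mean signal), 0 separated the groups without overlap, beside 2.09% of all probes.

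**Figure D1:**
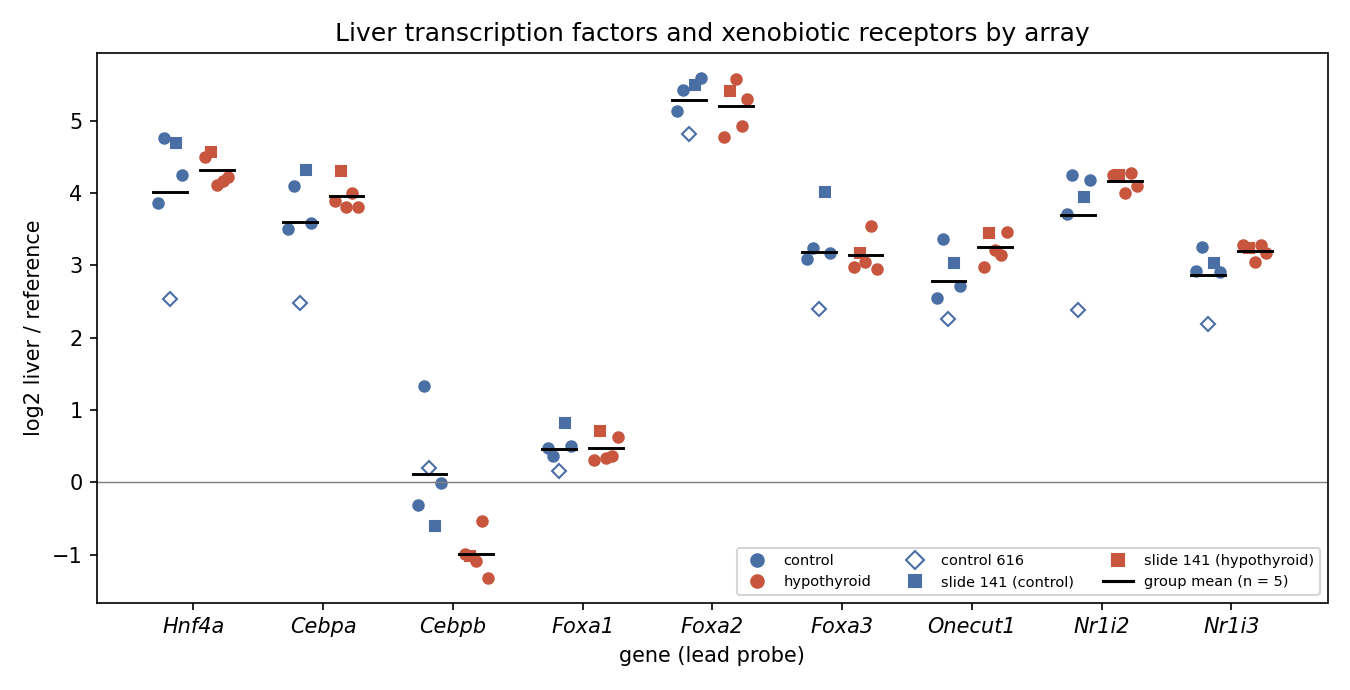
Log2 ratio of liver to reference on the vertical axis for the lead probe of each of the 9 genes, with 1 point for each array, controls in blue and hypothyroid livers in red, and bars for group means (n = 5). Control 616 (open diamond) is the lowest control for 8 of the 9 genes, and Cebpb is the gene with 4 of 5 hypothyroid livers below all controls.

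Cebpb encodes C/EBP beta, which is induced in liver by hormones, fasting and inflammation. The ratio of its lead probe was -0.0017, -0.60, 1.33, 0.20 and -0.31 in controls 881, 832, 522, 616 and 391. It was -1.31, -1.02, -0.99, -0.53 and -1.08 in hypothyroid animals 891, 576, 311, 723 and 626. The 5 hypothyroid livers were all below 0, and 4 of them lay below every control, while animal 723 overlapped control 832. The difference was -1.11 (limma standard error 0.31, 95% interval -1.79 to -0.43), a 2.16-fold lower mean in hypothyroid liver. It did not pass the threshold over all probes, with an adjusted p of 0.416 and an unadjusted p of 0.0041, which placed it in the first 0.992% of all probes. The exact two-sided permutation test of this single value over all 252 assignments gave p = 0.0159, where the smallest possible is 0.00794. This test was run for each of the 13 probes, with no adjustment.

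The other Cebpb probe ran the same way. Its ratio was -0.31, -0.41, 1.31, -0.44 and -0.07 in controls 881, 832, 522, 616 and 391, and -1.01, -0.61, -1.02, -0.52 and -0.98 in hypothyroid animals 891, 576, 311, 723 and 626. All 5 hypothyroid values lay below all 5 controls. The difference was -0.84 (standard error 0.30, adjusted p = 0.594), and the exact permutation p was 0.00794, the smallest it can be. Control 522 was far above the other controls on both probes. Without it the difference was -0.81 (adjusted p = 0.321) for the lead probe and -0.52 (adjusted p = 0.368) for the other. Control 522 was also a liver with high acinar markers. Without controls 832, 522 and 616 the differences were -0.83 (adjusted p = 0.243) and -0.64 (adjusted p = 0.321). Both probes then had all hypothyroid livers below the 2 remaining controls, where 11.3% of all probes did not overlap. On the lead probe control 832 was the only control that overlapped, so leaving it out fixed this in advance.

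Slide 141 held the lowest Cebpb value among the controls. Without that slide the lead probe had a difference of -1.28 (adjusted p = 0.557) with no overlap between 4 and 4 livers. In that set 5.6% of all probes did not overlap. The slide held the only control that overlapped on this probe, so leaving the slide out fixed this separation in advance. With the dyes of the slide as labelled the difference was -0.94 (standard error 0.47, adjusted p = 1). With slide as a fixed block it was -1.33 (adjusted p = 0.698), and as a random block -1.14 (adjusted p = 0.228). Within the 4 slides that held both groups the hypothyroid liver was lower than its control on all 4, by 1.31 on slide 139, 0.42 on slide 141, 2.32 on slide 136 and 1.27 on slide 100. The direction of Cebpb was the same on each slide, and the size varied.

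Cebpa encodes C/EBP alpha, the C/EBP protein of the resting, differentiated hepatocyte, and lies at chr7:35119293-35121928. Its lead probe was at 3.59, 4.32, 4.10, 2.48 and 3.50 in controls 881, 832, 522, 616 and 391, and at 3.81, 4.30, 3.89, 4.00 and 3.80 in hypothyroid animals 891, 576, 311, 723 and 626. The hypothyroid livers lay within the range of the controls. The difference was 0.36 (standard error 0.29, 95% interval -0.27 to 1.00, adjusted p = 0.772), and it was 0.084 without control 616. The second probe gave 0.18 (standard error 0.27), and -0.053 without control 616. Without controls 832, 522 and 616 the lead probe gave 0.42 (adjusted p = 0.503).

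The xenobiotic receptors came next. Nr1i3, the gene of CAR (chr1:171213934-171218845), was at 2.91, 3.03, 3.26, 2.20 and 2.93 in controls 881, 832, 522, 616 and 391, and at 3.17, 3.24, 3.29, 3.28 and 3.05 in hypothyroid animals 891, 576, 311, 723 and 626. Control 522 lay among the hypothyroid livers and the other 4 controls lay below all of them. The difference was 0.34 (standard error 0.16, 95% interval -0.020 to 0.70, adjusted p = 0.685), with an exact permutation p of 0.0397. It was 0.17 without control 616 (adjusted p = 0.720) and 0.25 without controls 522 and 616 (adjusted p = 0.419). Without controls 832, 522 and 616 it was 0.29 (adjusted p = 0.504). In these last 2 sets the groups did not overlap, beside 5.32% and 11.3% of all probes. Leaving out control 522, the only control that overlapped, fixed this in advance. Within slides the hypothyroid liver was the higher on all 4, by 0.26, 0.21, 0.031 and 0.85 on slides 139, 141, 136 and 100.

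Nr1i2, the gene of PXR (chr16:38248349-38294849, minus strand), was at 4.18, 3.95, 4.25, 2.39 and 3.71 in controls 881, 832, 522, 616 and 391. Hypothyroid animals 891, 576, 311, 723 and 626 were at 4.10, 4.24, 4.25, 4.28 and 4.00. Control 616 stood far below the other controls, and the remaining values overlapped. The difference of 0.48 (standard error 0.30, 95% interval -0.18 to 1.14, adjusted p = 0.731) was 0.15 without that array (adjusted p = 0.850) and 0.23 without controls 832, 522 and 616 (adjusted p = 0.788). Within slides Nr1i2 was higher on 2 and lower on 2, from -0.074 to 1.61, with the highest on the slide of control 616.

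Hnf4a (chr2:163506811-163572907) had 3 probes. On its lead probe controls 881, 832, 522, 616 and 391 were at 4.25, 4.70, 4.76, 2.53 and 3.86, and hypothyroid animals 891, 576, 311, 723 and 626 at 4.22, 4.57, 4.50, 4.17 and 4.12. The groups overlapped, and apart from control 616 the values covered a range of less than 1 log2 unit. The difference was 0.30 (standard error 0.36, 95% interval -0.49 to 1.09, adjusted p = 0.844) and was -0.074 without control 616 but 0.26 (adjusted p = 0.787) without controls 832, 522 and 616. The other probes gave 0.083 (standard error 0.16) and 0.16 (standard error 0.23), with -0.049 and -0.012 without control 616 and 0.11 and 0.31 without controls 832, 522 and 616. Their ratios to the reference, 1.34 and 1.60 in control liver, were well below the 4.02 of the lead probe. They were also dimmer, with mean log2 signals of 7.87 and 7.08 beside 8.87.

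Onecut1, a homeodomain factor upstream of Hnf4a and Foxa2 in liver development, was at 2.72, 3.03, 3.36, 2.26 and 2.55 in controls 881, 832, 522, 616 and 391, and at 3.46, 3.45, 2.99, 3.15 and 3.21 in hypothyroid animals 891, 576, 311, 723 and 626. Only 2 hypothyroid livers lay above every control. Control 522 lay among the hypothyroid livers, and control 832 lay above animal 311. The difference was 0.47 (standard error 0.19, 95% interval 0.054 to 0.88), with an unadjusted p of 0.030, an adjusted p of 0.637 and an exact permutation p of 0.0635. It was 0.34 without control 616 (adjusted p = 0.687) and 0.62 without controls 832, 522 and 616 (adjusted p = 0.249). Within slides it was higher on 3, by 0.74, 0.42 and 0.96 on slides 139, 141 and 100, and lower by 0.37 on slide 136. With dyes as labelled it was 0.30.

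With all 10 arrays the 3 FOXA genes had the smallest differences of the 9, but not without control 616, where Foxa2 was at -0.21 and Foxa3 at -0.24. Foxa1 was at 0.51, 0.82, 0.37, 0.16 and 0.47 in controls 881, 832, 522, 616 and 391, and at 0.63, 0.71, 0.31, 0.37 and 0.34 in hypothyroid animals 891, 576, 311, 723 and 626. The difference of 0.0046 had a 95% interval of -0.27 to 0.28 (adjusted p = 0.995). Foxa2 (chr2:148042877-148046969) ranged from 4.81 to 5.59 in controls and from 4.78 to 5.58 in hypothyroid livers, a difference of -0.088 (95% interval -0.49 to 0.32, adjusted p = 0.918). Foxa3 (chr7:19013283-19023539) ranged from 2.40 to 4.01 in controls, the highest being control 832, and from 2.96 to 3.55 in hypothyroid livers. Its difference was -0.043 (95% interval -0.58 to 0.49, adjusted p = 0.977), and 0.16 without slide 141. With all arrays the intervals of Foxa1 and Foxa2 lay within 0.5 log2 units of 0, and that of Foxa3 did not. For Foxa1 this was on the dimmest member probe, whose ratios and differences are drawn toward 0.

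**Figure D2:**
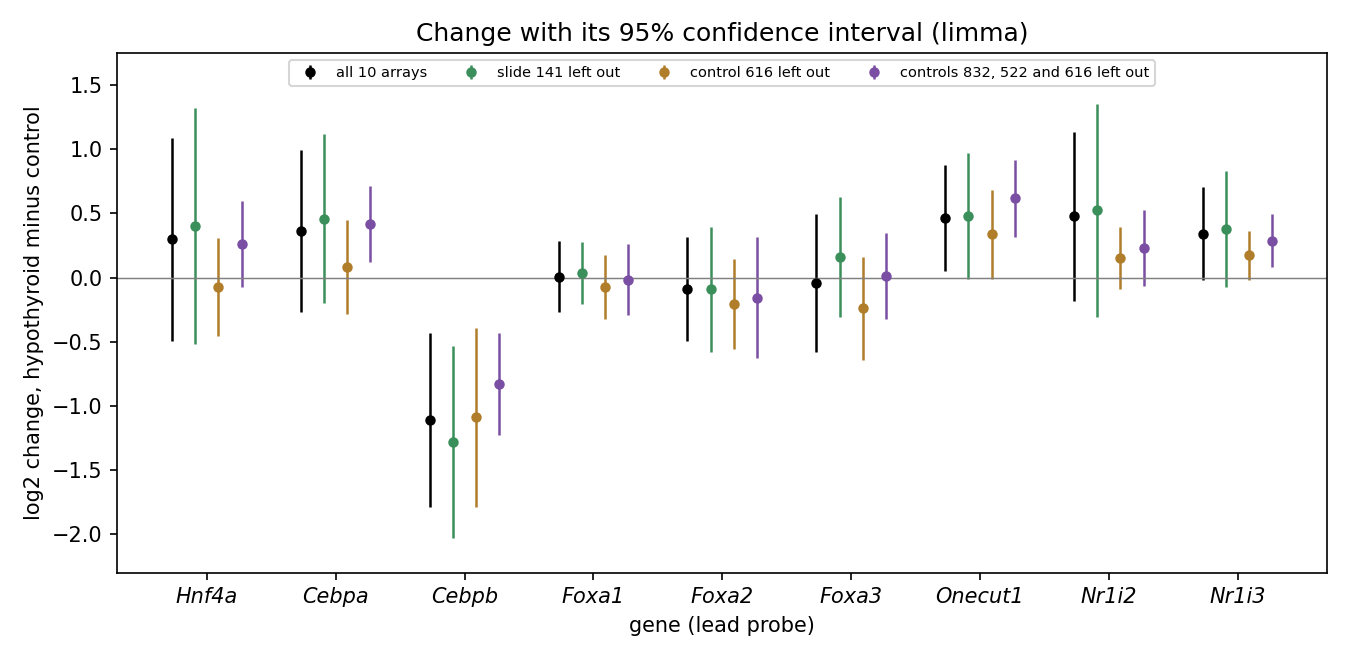
Difference of the group means (hypothyroid minus control, log2) with its 95% confidence interval from limma for the lead probe of each of the 9 genes, with all 10 arrays and with the named arrays left out. The Cebpb interval stays below 0 in all 4 sets, with points at -1.11, -1.28, -1.09 and -0.83. The points of Hnf4a, Cebpa, Onecut1, Nr1i2 and Nr1i3 move toward 0 without control 616.

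The spread of the members differed between the groups by description. For 8 of 9 lead probes the SD was larger in control than in hypothyroid liver, also after control 616 was set aside. Foxa2 was the exception both times. The count was not set beside the same share over all probes, and the 9 genes share their arrays. It is therefore not shown to be a trait of these genes. Nr1i2 had an SD of 0.76 in controls, 0.24 in controls without 616 and 0.12 in hypothyroid liver, and Nr1i3 had 0.40, 0.16 and 0.099. For Cebpb the SD was 0.74 in controls, 0.85 without 616 and 0.29 in hypothyroid liver, so there it was control 522 and not 616 that stood away.

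**Figure D3:**
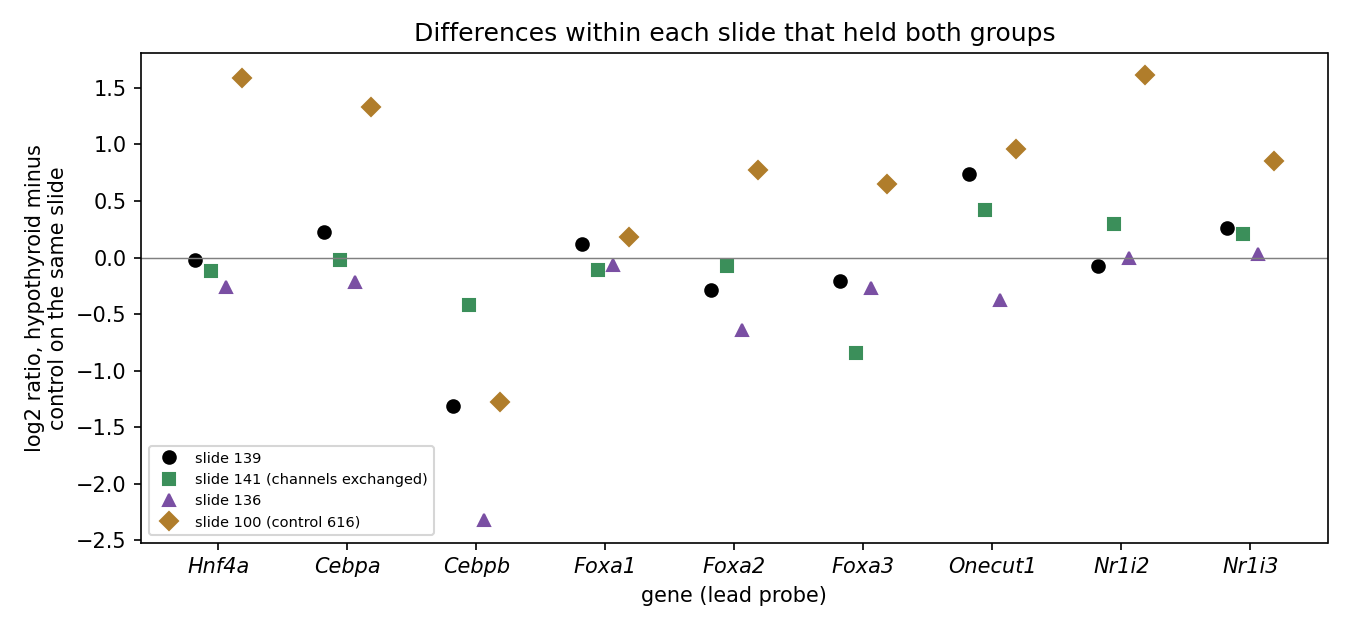
Hypothyroid minus control log2 ratio on each of the 4 slides that held an array of both groups, by gene (lead probe). Cebpb is below 0 and Nr1i3 above 0 on all 4 slides, and slide 100, which holds control 616, gives the highest point for 8 of the 9 genes.

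The genes that work with these factors were described in the same fit. Among 22 other liver transcription factors, all tested, 0 were called in either direction, 2 were higher and 2 lower at an unadjusted p below 0.05, and the median difference was 0.12 (0.027 without control 616). Onecut2, the close relative of Onecut1, did not overlap between groups, at 3.11, 3.24, 3.26, 2.08 and 3.01 in controls 881, 832, 522, 616 and 391 and 3.32 to 3.53 in hypothyroid livers. Its difference was 0.48 (standard error 0.20, adjusted p = 0.650), and 0.26 without control 616 (adjusted p = 0.335). Gata6, a zinc finger factor of endoderm, ran the other way without overlap, from -0.16 to 0.12 in controls and from -0.35 to -0.17 in hypothyroid livers, with a difference of -0.22 (adjusted p = 0.572). Among 14 receptor partners and coregulators, RXR genes included, 0 were called, 2 were higher and 2 lower at an unadjusted p below 0.05, 0 separated the groups and the median was 0.063.

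Among targets of PXR and CAR 2 genes separated the groups without overlap, beside 2.09% of all probes. Of 18 tested of 19 listed, 0 were called, 2 were higher and 0 lower at an unadjusted p below 0.05, and the median was 0.42, or 0.15 without control 616 and 0.24 without controls 832, 522 and 616. Cyp2c55, a cytochrome P450 gene, was at 0.64, 0.26, 0.38, 0.18 and 0.24 in controls 881, 832, 522, 616 and 391, and at 0.93, 0.95, 1.28, 0.81 and 1.52 in hypothyroid animals 891, 576, 311, 723 and 626. Every hypothyroid liver was above every control, by a mean difference of 0.76 (standard error 0.14, 1.69-fold, adjusted p = 0.148). Abcc3, an efflux transporter of conjugated bile acids and drugs, was at 1.03, 0.95, 1.17, 0.52 and 1.26 in controls and 1.54, 1.95, 2.15, 1.46 and 1.90 in hypothyroid livers in the same order. Its groups did not overlap either, with a difference of 0.81 (standard error 0.16, 1.76-fold, adjusted p = 0.188). Without control 616 the differences were 0.72 (adjusted p = 0.106) and 0.70 (adjusted p = 0.101). Without controls 832, 522 and 616 they were 0.66 (adjusted p = 0.416) and 0.65 (adjusted p = 0.376), and with dyes as labelled 0.48 and 0.42.

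Hepatocyte target genes gave no call. Of 17 HNF4A targets tested 0 were called, 1 was higher and 0 lower at an unadjusted p below 0.05, and the median was 0.34, or 0.11 without control 616 and 0.14 without controls 832, 522 and 616. Of 9 C/EBP targets tested 0 were called, 2 were higher and 0 lower, with a median of 0.40, or 0.11 and 0.24 without the same arrays. Of 7 FOXA targets tested 0 were called, 3 were higher and 0 lower, with a median of 0.61, or 0.18 and 0.25. The lists share genes such as Tat, Alb and G6pc. G6pc, the gene of glucose-6-phosphatase, did not overlap, from 3.34 to 4.36 in controls and from 4.46 to 4.47 in hypothyroid livers, a difference of 0.37 (adjusted p = 0.673), and 0.18 without control 616. Gys2, liver glycogen synthase, separated by little, with a highest control of 5.42 and a lowest hypothyroid liver of 5.43, and its difference of 0.40 was 0.069 without control 616.

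**Figure D4:**
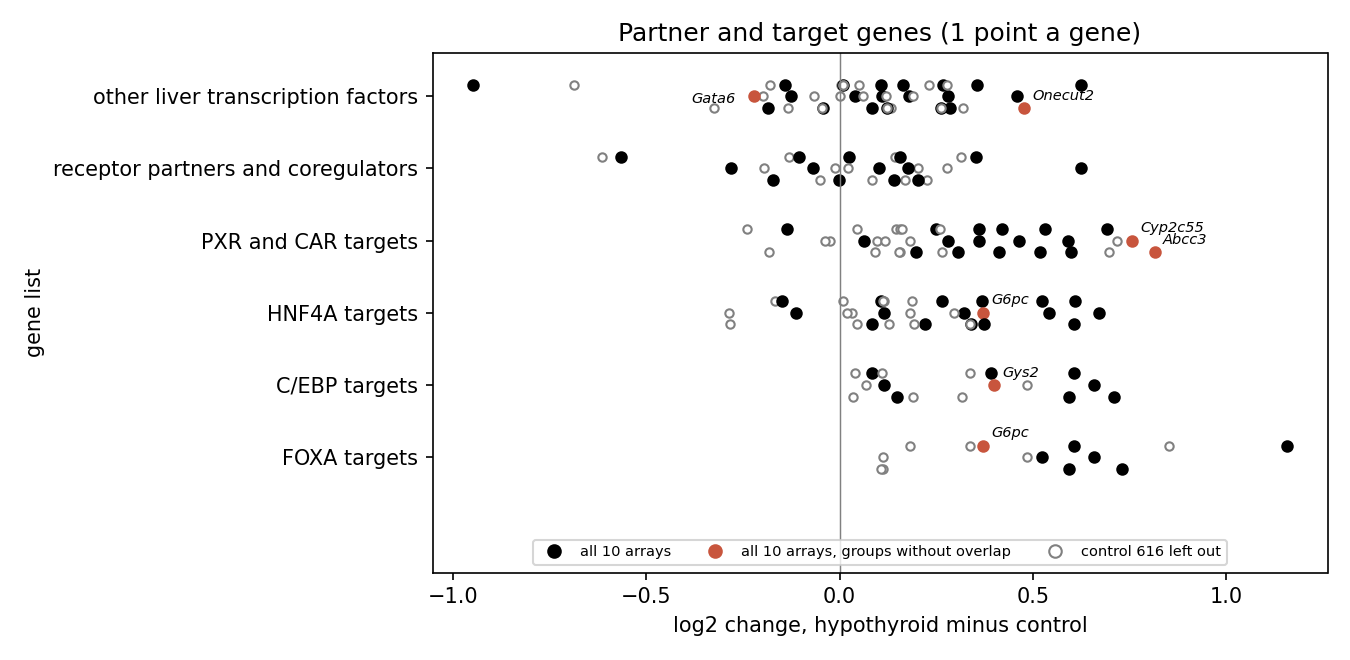
Log2 difference (hypothyroid minus control) for each tested gene of the 6 partner and target lists, with all 10 arrays (filled) and without control 616 (open), where red points mark genes whose groups did not overlap. Most target genes lie above 0 with all arrays and closer to 0 without control 616, while Cyp2c55 and Abcc3 stay at 0.72 and 0.70.

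Markers of cell types moved with some of these values. The mean over 8 hepatocyte markers was 2.48 to 4.56 in controls and 3.99 to 4.67 in hypothyroid livers, and the median difference of these markers was 0.63, or 0.29 without control 616 and 0.35 without controls 832, 522 and 616. In these 3 sets of arrays the medians lay above those of the 4 target lists, with all arrays by little for the FOXA targets (0.61). The marker list shares Alb, Apoa1 and Ttr with some of these target lists, so the sets are not separate. The pancreatic acinar markers differed by a median of -1.98, and 12 of 13 were lower at an unadjusted p below 0.05, where the 3 controls named above held the high values. Hnf4a, Foxa2 and Onecut1 are also expressed in pancreas. Ptf1a, which defines acinar cells, and Pnlip did not pass the background filter. That filter asks for 4 of 5 arrays of a group, so a marker present in those 3 controls alone cannot pass it. Pnlip ranged from 0.015 to 2.01 in controls and from 0.0080 to 0.16 in hypothyroid livers. Ptf1a ranged from 0.080 to 0.19 and from -0.0047 to 0.057. Kupffer cell markers ranged from 2.04 to 3.11 in controls and 2.75 to 2.91 in hypothyroid livers, neutrophil markers from 1.54 to 3.02 and 2.12 to 3.43, and endothelial markers from 2.75 to 3.48 and 3.10 to 3.28. Cholangiocyte markers ranged from -1.51 to -0.35 and -1.51 to -1.41, stellate cell markers from 1.23 to 1.55 and 1.21 to 1.48, erythroid markers from 1.02 to 1.91 and 1.58 to 1.91, and skeletal muscle markers from -0.80 to -0.30 and -0.84 to -0.75, where Myh4 and Pvalb did not pass the filter. In none of these 9 marker lists was a gene called. Values without those controls are given above, and the part of other cells in the differences of the regulators was not tested.

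Genes whose ratios followed each member most closely were sought among 14437 genes over the 9 arrays other than control 616. For Cebpb these were Cebpd, the next member of its own family, at r = 0.981, and Thbd, the gene of thrombomodulin, at 0.980. Over all 10 arrays the values were 0.863 and 0.915. Cebpd was at -1.98, -2.26, -0.89, -0.54 and -2.27 in controls 881, 832, 522, 616 and 391 and from -2.81 to -2.19 in hypothyroid livers. Like Cebpb it was high in control 522, but its highest value was in control 616. The Cebpd difference was -0.95 (standard error 0.33, adjusted p = 0.569). It was -0.69 without control 616 (adjusted p = 0.513) and -0.41 without controls 832, 522 and 616 (adjusted p = 0.589). The pairs for the receptors were Padi6 (0.971) and Chkb (0.940) for Nr1i3, and Kmo (0.942) and Abca9 (0.929) for Nr1i2. For the hepatocyte factors they were Cacna1h (0.932) and Abca6 (0.931) for Hnf4a, Hsd17b2 (0.957) and Tmem220 (0.938) for Cebpa, and Urb2 (0.930) for Onecut1. For the FOXA genes they were Ube2w (0.967) and Map3k11 (0.965) for Foxa1, Lyrm1 (0.943) and Plaat1 (0.937) for Foxa2, and Dio2 (0.947) and Ago1 (0.936) for Foxa3. Over all 10 arrays these pairs ranged from -0.19 (Onecut1 with Urb2) to 0.99 (Hnf4a with Abca6). Each pair is the best of many and shares its arrays and reference, so these are descriptions.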

How the data were processed

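The authors hybridised liver RNA labelled with Cy5 and reference RNA labelled with Cy3 to Agilent 4x44K mouse arrays and deposited the scanner output, in which values are the intensity of each spot in both channels. Precision is limited by the number of arrays, 5 for each group. From the median intensity of each deposited spot, background was corrected with normexp (offset 50), log2 ratios were normalized by loess within each array (span 0.2, the span in the study's methods), control and outlier spots were left out and spots of a probe were averaged. The channels of slide 141 were exchanged. Probes were kept where the liver channel exceeded a limit set by the negative control spots (their mean after trimming 5%, plus 3 SDs trimmed likewise) on at least 4 of 5 arrays of a group. Probes were named by accession through RefSeq, and 23384 of 41174 had a symbol. limma 3.58.1 in R 4.3.3 was fitted on all 32057 probes with Benjamini-Hochberg adjustment, in place of MAANOVA, and was tested on simulated data. Tests on single values were exact two-sided permutation tests.

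The members and gene lists were chosen with earlier results of these data known. The genes named were the 9 members with every probe, from each list the genes called or otherwise up to 3 without overlap with the largest difference, and for each member the 2 most similar genes. Cebpd and Thbd belong to the last. One result of the last kind is not reported here. Alternatives were the dyes as labelled, slide 141 or each array left out, other signals, background, normalization and filter, slide as a block, array weights (statmod 1.5.0), a mean over the probes of each gene, and a shrunken-variance F-test (Fs) whose p came from 100 shuffles of residuals. The miRNA files were not used here.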

Additional observations from a re-analysis of the deposited data

Results flagged for a closer look

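In 2 of 26 sets of 5 arrays of a group (13 probes and 2 groups, 7.69%), 1 array stood apart from the other 4 by a gap of more than 0.71 of the group's range, where chance gives about 5%. Cebpb had 1, on the probe other than its lead, where control 522 was the highest control at 1.31 and its gap was 0.791 of the range. Nr1i2 had the other, where control 616 was the lowest control at 2.39 and its gap was 0.7103 of the range.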

How the results depend on the processing

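No member was called in hypothyroid against control liver under any of 27 alternatives, 3 of them (slide 141 and control 616 left out, controls 522 and 616 left out, controls 832, 522 and 616 left out) chosen after the values were seen. On lead probes Cebpb stayed lower in all 27 (-1.33 to -0.68, adjusted p 0.155 to 1), and Cebpa, Onecut1, Nr1i2 and Nr1i3 stayed higher, while the other Cebpa probe was -0.053 without control 616. Foxa1, at 0.0046 with all arrays, was -0.061 with array weights, -0.040 with the liver channel alone, -0.016 without background correction, -0.043 with processed signals, -0.039 without slide 141 and control 616, -0.13 without controls 522 and 616, -0.017 without controls 832, 522 and 616, and -0.072 to 0.094 with each array left out. Foxa2 was 0.13 with median centring and -0.21 to 0.017 with each array left out. Foxa3 was 0.29 with dyes as labelled, 0.23 with median centring, 0.40 with processed signals, 0.16 without slide 141, 0.0100 without controls 832, 522 and 616, and -0.24 to 0.16 with each array left out. Hnf4a was -0.037 without slide 141 and control 616 and -0.074 to 0.48 with each array left out. With dyes as labelled 0 of 9 members were called against the reference. Members without overlap between groups were 0 with all arrays, 1 with the liver channel alone (1.71% of all probes then), probes averaged to genes (2.03%), processed signals (1.95%), slide 141 left out (5.6%), slide 141 and control 616 left out (7.83%), or controls 522 and 616 left out (5.32%), 4 with controls 832, 522 and 616 left out (11.3%), and 0 to 1 with each array left out. The 4 were Cebpa, Cebpb, Onecut1 and Nr1i3. In each set with slide 141 or more than 1 control left out, every control that overlapped in the genes counted was among those left out. Their separation there was fixed in advance. The cause was not tested. Probes called over the whole array were 2, and from 0 (dyes as labelled, slide 141 left out, slide as a fixed block) to 49 (array weights), with 33 without control 616. Scan date was not run, since it coincides with slide. No paired analysis was possible because no control and hypothyroid animal share a replicate number. Slide, which 4 pairs of arrays share, was fitted as a block instead, and 0 members were called with it.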
